A study of Mus musculus with 12 samples.

Results

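The cyclin-dependent kinase inhibitors and the p53 axis of the mouse were followed here as 10 genes, Cdkn1a, Cdkn1b, Cdkn1c, Cdkn2a, Cdkn2b, Cdkn2c, Cdkn2d, Trp53, Mdm2 and Ccng1, picked by gene symbol from the 25899 genes of the expression table. Each symbol was found once, and 8 of the 10 genes had a mean of 1 RPKM or more over all libraries. RPKM divides reads by transcript length and by library depth, so levels of different genes can be set side by side. The libraries hold RNA of first lower molar germs of C57BL/6 mice, taken at postnatal day 4 from the apical portion, where the root forms. The series title places Nfic, a nuclear factor I transcription factor, upstream of Hedgehog signalling in root development. The 6 Nfic-/- libraries came from mice lacking functional Nfic, and the 6 Nfic+/- control libraries from littermates with 1 intact copy, so no wild-type animal entered the comparison. The labels name no Cre driver that would restrict the loss of Nfic to a cell type, nor how many germs went into a library.

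CDK inhibitors stop the cell cycle by binding cyclin-dependent kinases or their cyclin complexes. The Cip/Kip proteins p21 (Cdkn1a), p27 (Cdkn1b) and p57 (Cdkn1c) bind many cyclin-CDK complexes, whereas the INK4 proteins p16 (Cdkn2a), p15 (Cdkn2b), p18 (Cdkn2c) and p19 (Cdkn2d) bind CDK4 and CDK6. The transcription factor p53 (Trp53) is held low by the ubiquitin ligase Mdm2, and Cdkn1a, Mdm2 and Ccng1 are classical transcriptional targets of p53.

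The promoters of Cdkn1a and Ccng1 are shown because each holds a match to the p53 element, printed in capitals as a 20-base run of a p53 decamer beside 10 bases that match the same pattern at 9 of 10 positions. The promoters of Cdkn2c and Cdkn2d are shown because these INK4 genes had the highest correlations with the dividing-cell genes described below, and their capitals mark the GC box GGGCGG on either strand. All are RefSeq windows of GRCm38.p6 running from 250 bases before to 50 bases after an annotated start, 5′ to 3′ on the strand of the gene.
Cdkn1a (chr17:29090729-29091028, plus): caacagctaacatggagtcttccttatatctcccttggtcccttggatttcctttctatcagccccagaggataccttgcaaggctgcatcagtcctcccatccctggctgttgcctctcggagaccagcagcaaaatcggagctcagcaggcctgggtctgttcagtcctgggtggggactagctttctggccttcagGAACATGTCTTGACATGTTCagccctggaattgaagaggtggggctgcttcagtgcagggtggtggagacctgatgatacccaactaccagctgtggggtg
Ccng1 (chr11:40755237-40755536, minus): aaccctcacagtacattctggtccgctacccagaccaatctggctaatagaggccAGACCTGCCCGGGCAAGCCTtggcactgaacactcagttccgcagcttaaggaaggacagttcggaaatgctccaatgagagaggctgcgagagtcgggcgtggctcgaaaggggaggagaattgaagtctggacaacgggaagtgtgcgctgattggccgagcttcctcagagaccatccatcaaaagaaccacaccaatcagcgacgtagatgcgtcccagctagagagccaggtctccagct
Cdkn2c (chr4:109666707-109667006, minus): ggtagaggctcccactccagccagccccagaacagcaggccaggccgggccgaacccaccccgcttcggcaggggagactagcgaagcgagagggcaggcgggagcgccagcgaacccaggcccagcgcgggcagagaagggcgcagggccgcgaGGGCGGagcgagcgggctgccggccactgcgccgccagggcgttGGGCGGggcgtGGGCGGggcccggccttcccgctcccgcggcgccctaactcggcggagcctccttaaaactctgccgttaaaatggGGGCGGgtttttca
Cdkn2d (chr9:21291160-21291459, minus): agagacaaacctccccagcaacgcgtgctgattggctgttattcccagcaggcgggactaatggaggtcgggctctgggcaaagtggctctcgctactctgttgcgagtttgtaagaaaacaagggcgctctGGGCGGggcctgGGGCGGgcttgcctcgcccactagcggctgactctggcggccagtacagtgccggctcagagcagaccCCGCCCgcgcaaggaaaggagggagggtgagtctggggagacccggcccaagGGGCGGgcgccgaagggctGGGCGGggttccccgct

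The p53 element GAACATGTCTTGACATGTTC of Cdkn1a lay at positions -51 to -32 from the upstream of the annotated starts of the gene (chr17:29090928-29090947). The window of the downstream start (chr17:29093519-29093818) held 0 p53 decamers. The element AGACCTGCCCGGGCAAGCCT of Ccng1 lay at positions -195 to -176 from its start (chr11:40755462-40755481, minus strand). Windows were held for 9 of the 10 genes, 12 windows in all. An element of this kind was found in 29 of 32851 windows of the mouse genome (0.0883%), and among the 10 genes in those of Cdkn1a and Ccng1. The single p53 decamer occurred in 5 of the 12 windows, those of Cdkn2d, Mdm2, Ccng1, Trp53 and Cdkn1a, and in 8.36% of all windows.

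The palindromic nuclear factor I site, a pair of inverted TTGGC arms, was in 0 of the 12 windows and in 0.0365% of all windows, and the single TTGGC arm, searched on both strands, was in 5 of 12 against 46.7%. GGGCGG was in 8 of 12 windows against 35.7% of all, with 4 copies in the printed Cdkn2c window, 0 in the other Cdkn2c window and 5 in the Cdkn2d window. CCAAT was in 7 of 12 against 37.4%, and TTGGC can overlap the reverse complement of CCAAT. These matches describe letters in short windows and do not show binding.

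Nfic itself had 16.8 ± 4.42 RPKM in the controls and 11.4 ± 3.02 RPKM in the nulls (SD, n = 6 each), a difference of -0.52 on the log2(RPKM + 1) scale with an exact 2-sided permutation p of 0.0303 (limma adjusted p = 0.934 over all genes). The null transcript was thus lower and not absent, and p passed 0.05 when control 6, control 10, null 5 or null 6 was left out (0.0519, 0.0628, 0.0541 and 0.0541). The median differences of the dental mesenchyme and odontoblast lists described below were of like size, at -0.52 and -0.49. The part of cell content in the Nfic difference was not tested. The depth read from the values was 70.2 to 96.4 M reads per library. Libraries numbered 8 and 9 of both genotypes stood apart by intestinal transcripts, with a mean of 3.85 to 4.33 on the log2(RPKM + 1) scale over the intestine list against 0.03 to 0.10 in the other 8 libraries. Libraries 5 to 7 and 8 to 10 were read as separate sets from numbers that repeat in the column names, and each set holds 3 libraries of each genotype. The series speaks of 6 littermate pairs, but no label ties a library number to a pair or a litter. The main tests therefore set 6 libraries against 6, and their p-values measure the spread between these libraries. They took no account of likeness between libraries of equal number, whose deviations correlated at 0.00502 to 0.802.

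The 10 genes spanned a wide range of levels, with Cdkn1a highest in 12 of 12 libraries. Its ratio to Cdkn1c, the next gene, ran from 1.25 in control 10 to 7.40. Ordered by their mean level on the log2(RPKM + 1) scale, the genes ran Cdkn1a, Cdkn1c, Cdkn1b, Ccng1, Mdm2, Trp53, Cdkn2d, Cdkn2c, Cdkn2b and Cdkn2a. Of the 9 pairs of neighbours, 6 kept their order in 12 of 12 libraries, with differences in level of 0.55 to 1.61 and p = 0.000488 in an exact 2-sided sign-flip permutation test over libraries, the smallest it can give (0.000732 after Benjamini-Hochberg adjustment over the 9 pairs). Cdkn1b and Ccng1 were not separated (0.10, 9 of 12 libraries, exact permutation p = 0.260 and adjusted p = 0.260). Mdm2 and Trp53 were not separated either (0.09, 7 of 12, exact permutation p = 0.251, adjusted p = 0.260). Trp53 exceeded Cdkn2d by 0.10 in 9 of 12 libraries (exact permutation p = 0.0762, adjusted p = 0.0979), and this adjusted p was 0.0239 without null 10. The neighbours and their direction were set from the same 12 libraries, so these p-values are not an independent test of the order.

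**Figure D1:**
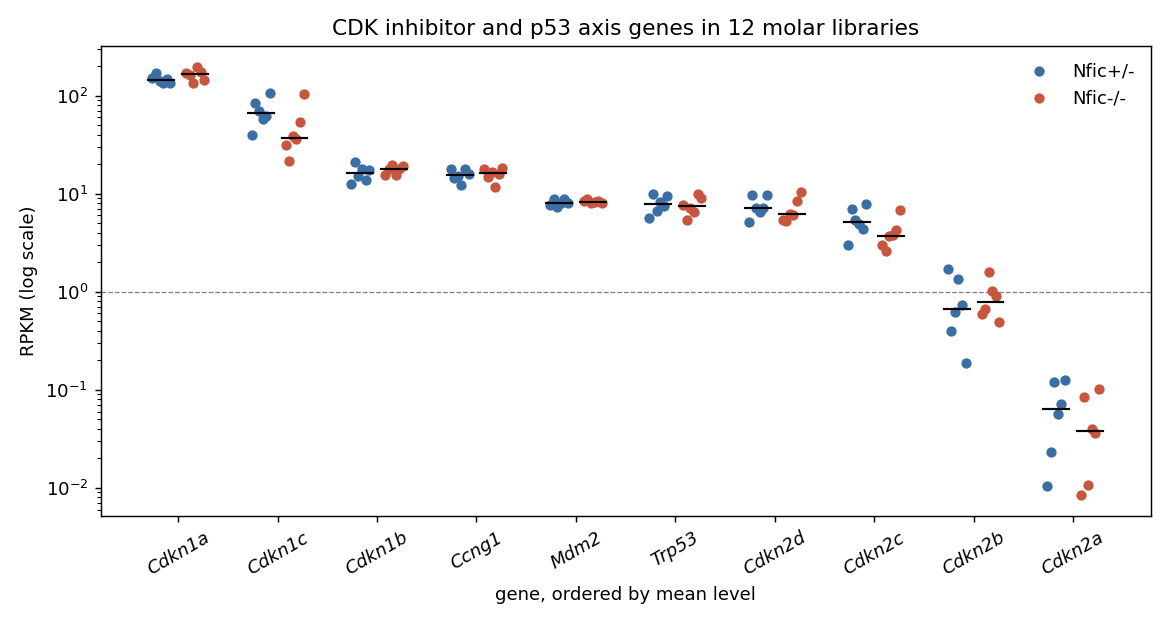
Level of each of the 10 genes in RPKM on a log axis, with 1 point per library, controls and nulls apart. Cdkn1a runs from 133 to 194 RPKM over the 12 libraries and Cdkn2a from 0.00851 to 0.125 RPKM, and the genotypes overlap for every gene.

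No CDK inhibitor or p53-axis gene differed between genotypes at an adjusted p below 0.05. In the limma comparison over 12094 genes, 0 of the 8 tested members were called (Benjamini-Hochberg), where 0% of all tested genes were called, and 0 of 8 had an unadjusted p below 0.05, where 5.34% of all genes (646) did, 2.72% in the lower direction. Under some other settings Cdkn1c, Cdkn2c or Cdkn1a had an unadjusted p below 0.05, as given where the settings are compared. The difference was above 0 for 4 of the 8 and below 0 for 4, where 48.9% of all tested genes were above and 51.1% below, with a median of -0.01 on the log2(RPKM + 1) scale against -0.003 over all tested genes. The values of the nulls overlapped those of the controls for 8 of 8, while 0.157% of all genes had groups that did not overlap.

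Cdkn1a (ENSMUSG00000023067, chromosome 17, 29090976 to 29100727, plus strand, GRCm38) encodes p21, the main CDK inhibitor downstream of p53. Its level ran from 133 over a median of 146 to 170 RPKM in the controls and from 135 over 166 to 194 RPKM in the nulls. Nulls 6, 7 and 10 fell inside the control range, while nulls 5, 8 and 9 stood above every control. The means were 146 ± 13.3 and 163 ± 21.9 RPKM, a difference of 0.15 (SE 0.0978, limma adjusted p = 0.99997, 95% interval -0.06 to 0.36) on the log2(RPKM + 1) scale. It was 0.01 within libraries 5 to 7, 0.28 within 8 to 10 and 0.03 with libraries 8 and 9 left out. With a level above that of 98.9% of tested genes, Cdkn1a was the most abundant member in every library. An unnamed transcript annotated on the opposite strand shares 273 bases, or 7.68%, of its exons, and whether reads were counted by strand is not given.

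Cdkn1c (ENSMUSG00000037664, chromosome 7, 143458339 to 143461050, minus strand) encodes p57, an imprinted inhibitor expressed from the maternal copy. In the controls it ran from 39.5 over a median of 65.9 to 107 RPKM, and in the nulls from 21.7 over 37.1 to 104 RPKM. Nulls 5, 6, 7 and 8 lay below every control, null 9 lay inside the control range, and null 10, at 104 RPKM, lay beside the highest control, which also carried the number 10. The means were 69.9 ± 23.1 and 47.6 ± 29.6 RPKM, a difference of -0.66 (SE 0.320, limma adjusted p = 0.941, 95% interval -1.35 to 0.02), and the gene ranked 736 by p among the tested genes. The exact 2-sided permutation test gave p = 0.0974. Cdkn1c was lower in the null of 6 of 6 library numbers. With the number as a block its limma p was 0.0131 (adjusted p = 0.482), where 981 of all genes were below 0.05.

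The difference of Cdkn1c was -1.02 within libraries 5 to 7, -0.30 within 8 to 10, and -0.78 with libraries 8 and 9 left out, none of them called. The antisense gene Gm44732 covers 625 of its 2039 exon bases (30.7%), so without strand-specific counting their reads cannot be told apart. The dental mesenchyme list (Msx1, Pax9, Barx1, Lhx8, Vim, Pdgfra, Twist1, Prrx1, Prrx2 and Dlx2) had 9 of 10 genes below 0 and 0 called, a median of -0.52 and a summed level of 324 to 673 RPKM in the controls and 201 to 594 RPKM in the nulls. No marker of that list was below 0.1 RPKM in all libraries. Other lists leaned the same way with 0 called, odontoblast with 9 of 10 genes below 0 (median -0.49, summed level 4049 to 6229 against 2654 to 5186 RPKM), endothelium with 7 of 7 (-0.37, 27.2 to 57.1 against 15.2 to 45.8 RPKM) and macrophage with 7 of 7 (-0.37, 79.5 to 181 against 39.3 to 147 RPKM). An unadjusted limma p below 0.05 was reached by 6 of 10 dental mesenchyme, 6 of 10 odontoblast, 1 of 7 endothelium and 0 of 7 macrophage genes. Of all tested genes 5.34% reached it, 0% were called and 51.1% were below 0. The part of these cell types in the Cdkn1c values was not tested. In bulk tissue, fewer cells of a type and less RNA per cell cannot be told apart.

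Cdkn1b (ENSMUSG00000003031, chromosome 6, 134920401 to 134925513, plus strand) encodes p27, an inhibitor controlled largely through its breakdown. Its level ran from 12.6 over a median of 16.2 to 21.2 RPKM in the controls and from 15.5 over 17.8 to 19.7 RPKM in the nulls, so all nulls lay within the control range. The means were 16.3 ± 3.12 and 17.6 ± 1.80 RPKM, a difference of 0.12 (SE 0.114, limma adjusted p = 0.99997, 95% interval -0.13 to 0.36).

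**Figure D2:**
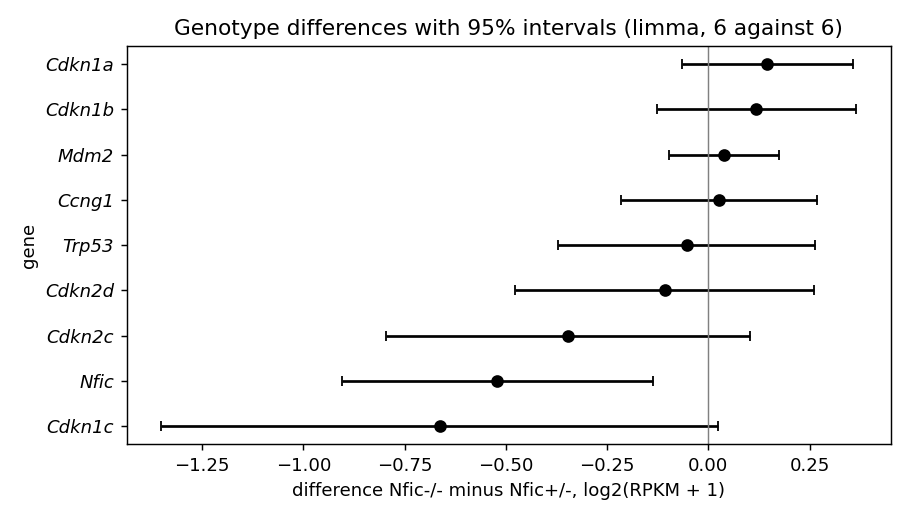
Difference between Nfic-/- and Nfic+/- (log2(RPKM + 1), limma, 6 against 6) for the 8 tested genes and Nfic, points with 95% intervals. The interval of Cdkn1c is the widest, from -1.35 to 0.02, and that of Mdm2 the narrowest.

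Among the INK4 genes, Cdkn2d and Cdkn2c were the most abundant, and Cdkn2b made up 1.06% to 17.4% of the summed INK4 RPKM by library. Cdkn2c (ENSMUSG00000028551, chromosome 4, 109660876 to 109667189, minus strand), encoding p18, ran from 2.96 over a median of 5.17 to 7.82 RPKM in the controls and from 2.60 over 3.74 to 6.86 RPKM in the nulls. The groups overlapped over most of their range. The means were 5.41 ± 1.78 and 4.03 ± 1.51 RPKM, a difference of -0.35 (SE 0.208, limma adjusted p = 0.980), with -0.54 within libraries 5 to 7, -0.16 within 8 to 10 and -0.44 with 8 and 9 left out.

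Cdkn2d (ENSMUSG00000096472, chromosome 9, 21288410 to 21291407, minus strand), encoding p19, the INK4 protein distinct from Arf, ran from 5.13 over 7.11 to 9.76 RPKM in the controls and from 5.26 over 6.14 to 10.4 RPKM in the nulls. The highest null lay above every control, and the others fell inside the control range. The means were 7.53 ± 1.82 and 6.96 ± 2.03 RPKM, a difference of -0.11 (SE 0.171, limma adjusted p = 0.99997), which was -0.29 within libraries 5 to 7 and 0.08 within 8 to 10.

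Cdkn2b (ENSMUSG00000073802, chromosome 4, 89306299 to 89311039, minus strand), which encodes the TGF-beta-responsive inhibitor p15, was scarce and uneven. It ran from 0.187 over a median of 0.674 to 1.70 RPKM in the controls and from 0.487 over 0.783 to 1.57 RPKM in the nulls, with means of 0.828 ± 0.578 and 0.872 ± 0.396 RPKM. The groups overlapped, and the difference of 0.07 gave an exact 2-sided permutation p of 0.753. With 1 library left out it ran from -0.04, without control 10, to 0.19, without control 5, and it was -0.03 without null 7. Its mean was below the 1 RPKM asked of a gene in the comparison over all genes.

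Cdkn2a (ENSMUSG00000044303, chromosome 4, 89274471 to 89294653, minus strand) gives rise to p16 and, from another first exon, to Arf, an inhibitor of Mdm2, and a value per gene cannot separate them. Reads worked back from the values numbered 0, 2, 10, 6, 8 and 14 in controls 5 to 10 and 0, 7, 1, 4, 4 and 11 in nulls 5 to 10. The gene was thus at no more than 14 reads in any library, with 40 reads over the controls and 27 over the nulls, and 8 libraries lay above 3 reads. A count of 0 allows up to 3 reads, or 0.0266 to 0.0365 RPKM by library, and covers counting error only. The genotype difference was -0.03 on the log2(RPKM + 1) scale (exact 2-sided permutation p = 0.413) and -0.18 with a pseudocount of 0.1. With 4 of 12 libraries at or under the limit of 3 reads, such counts cannot resolve a small difference.

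Trp53 (ENSMUSG00000059552, chromosome 11, 69580359 to 69591873, plus strand) ran from 5.62 over a median of 7.91 to 9.95 RPKM in the controls and from 5.38 over 7.41 to 9.94 RPKM in the nulls. The ranges of the genotypes all but coincided. The means were 7.90 ± 1.63 and 7.59 ± 1.67 RPKM, a difference of -0.05 (SE 0.147, limma adjusted p = 0.99997). As p53 is regulated chiefly through protein stability, transcript levels do not measure its activity.

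Mdm2 (ENSMUSG00000020184, chromosome 10, 117688875 to 117710758, minus strand), at once a target and the inhibitor of p53, ran from 7.23 over 8.07 to 8.74 RPKM in the controls and from 7.99 over 8.30 to 8.84 RPKM in the nulls. Its highest library was 1.22 times its lowest, and the groups overlapped. The means were 8.08 ± 0.596 and 8.31 ± 0.296 RPKM, a difference of 0.04 (SE 0.0635, limma adjusted p = 0.99997).

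Ccng1 (ENSMUSG00000020326, chromosome 11, 40748552 to 40755311, minus strand) encodes cyclin G1, which takes part in feedback on p53 through Mdm2. It ran from 12.3 over 15.6 to 17.7 RPKM in the controls and from 11.8 over 16.3 to 18.4 RPKM in the nulls, with overlapping groups. The means were 15.5 ± 2.05 and 15.9 ± 2.38 RPKM, a difference of 0.03 (SE 0.112, limma adjusted p = 0.99997).

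The members differed widely in their spread between libraries. The standard deviation of Cdkn1c over the 12 libraries (0.70, log2(RPKM + 1)) was above that of 97.8% of tested genes, and that of Cdkn2c above 91.7%, where the median gene had 0.20. Mdm2 stood at the other end at the 0.860 percentile with 0.07. The place of Mdm2 depended on the scaling: after median-ratio scaling, with factors of 0.818 to 1.17, it lay at the 49.3 percentile, while Cdkn1c lay at 97.2 and Cdkn2c at 88.1. The enamel gene Amelx took 28240 to 106179 RPKM by library, and its part in the RPKM of other genes was not tested.

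Cdkn1c, Cdkn2c, Cdkn2d and Trp53 were high in the same libraries as genes of dividing cells, and most tested genes had a relation to that list in one direction or the other. In RPKM as deposited, 4 of the 8 members were related to the proliferation list at a permutation adjusted p below 0.05 over all genes, where 61.1% of 12072 genes outside the list were, so the count is no result about the members. Ranked by signed r, Cdkn2d stood at the 98.5 percentile of these genes, Cdkn2c at 97.2, Cdkn1c at 89.1 and Trp53 at 81.4, while Cdkn1b stood at 29.6, Mdm2 at 13.8, Ccng1 at 13.3 and Cdkn1a at 8.35. The proliferation list of 20 mitotic genes, Mki67 and Top2a among them, summed to 32.2 to 115 RPKM in the controls and 34.0 to 80.8 RPKM in the nulls. Across the 12 libraries, Pearson's r with the mean of the list was 0.949 for Cdkn2d, 0.934 for Cdkn2c, 0.885 for Cdkn1c and 0.853 for Trp53, with Spearman's rho of 0.965, 0.930, 0.867 and 0.825. Permutation tests with 100000 resamples gave raw p of 1e-05, 2e-05, 9e-05 and 0.00045, of which 1e-05 is the smallest they can give, and 8e-05, 8e-05, 0.00024 and 0.0009 after Benjamini-Hochberg adjustment over the 8 relations. Adjusted over all 12072 genes, the permutation p were 0.000393, 0.000498, 0.00104 and 0.00238. For rho the raw p were 1e-05, 7e-05, 0.00051 and 0.00148.

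The relations of these 4 genes were also taken over subsets of the libraries. Without controls 6 and 10, the libraries farthest from the median of the list, r was 0.968, 0.882, 0.853 and 0.841 in the same order. With genotype means subtracted it was 0.952, 0.937, 0.894 and 0.863, and with libraries 8 and 9 left out 0.951, 0.964, 0.904 and 0.906. Within libraries 5 to 7 it was 0.985, 0.950, 0.849 and 0.892, and within 8 to 10 it was 0.874, 0.883, 0.865 and 0.700. The permutation p adjusted over the 8 relations exceeded 0.05 for Cdkn1c within 5 to 7 (0.0583) and within 8 to 10 for Cdkn2d, Cdkn2c and Cdkn1c (0.0704 each) and Trp53 (0.239).

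For the other 4 genes, r with the proliferation list was 0.481 for Cdkn1b, -0.185 for Cdkn1a, 0.0694 for Mdm2 and 0.0495 for Ccng1, with rho of 0.301, -0.224, -0.0699 and -0.0839 and raw permutation p of 0.113, 0.561, 0.829 and 0.880. The adjusted p were 0.181, 0.748, 0.880 and 0.880. These values turned on the scaling. After median-ratio scaling, r was -0.712 for Cdkn1a (permutation adjusted p = 0.0144) and -0.833 for Mdm2 (permutation adjusted p = 0.0014), while it was 0.879 for Cdkn2d, 0.883 for Cdkn2c, 0.839 for Cdkn1c and 0.658 for Trp53. At a permutation adjusted p below 0.05 over all genes, 5 of the 8 members then passed where 25.8% of genes did, and Trp53 (0.0669) was not among them. Scale factors were highest in controls 6 (1.17) and 10 (1.13) and lowest in control 5 (0.818) and null 6 (0.858). The list was also highest in those controls, 6 and 10, and lowest in control 5 and null 6. Mdm2 had an SD of 0.07 as deposited and 0.15 after division by the factors. The part of the factors in r after scaling, here and below, was not tested.

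**Figure D3:**
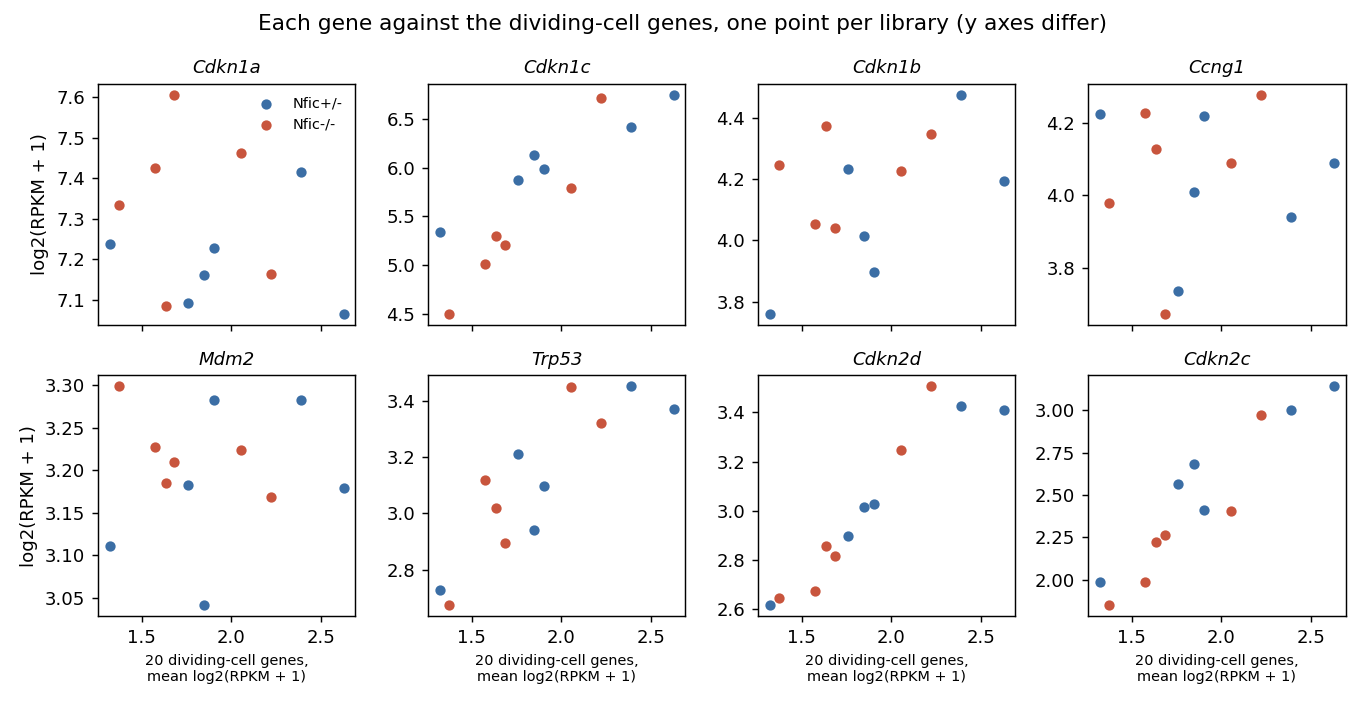
Level of each of the 8 tested genes (log2(RPKM + 1)) against the mean level of the proliferation list in the same library, 12 libraries, genotypes apart. Points of Cdkn2d, Cdkn2c, Cdkn1c and Trp53 rise along the list with r from 0.853 to 0.949, and those of Mdm2 and Ccng1 show r under 0.1.

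The same 4 genes correlated with the dental mesenchyme list, a relation that was added after the values had been seen. Of all genes outside that list, 44.7% passed at a permutation adjusted p below 0.05, against these 4 of the 8 members, and ranked by signed r Cdkn1c stood at the 99.0 percentile, Cdkn2c at 96.3, Cdkn2d at 87.4 and Trp53 at 82.0. In that added family of 24 relations, r was 0.968 for Cdkn1c, 0.936 for Cdkn2c, 0.853 for Cdkn2d and 0.812 for Trp53 (rho 0.958, 0.944, 0.874 and 0.741), with raw permutation p of 1e-05, 2e-05, 0.00028 and 0.00128 and adjusted p of 0.00024, 0.00024, 0.00168 and 0.00614. Without null 6 and control 10, the libraries farthest from the median, r was 0.950, 0.941, 0.863 and 0.704. It was 0.977, 0.928, 0.856 and 0.767 within libraries 5 to 7, and 0.939, 0.917, 0.757 and 0.742 within 8 to 10. After median-ratio scaling it was 0.952, 0.897, 0.750 and 0.699 (raw permutation p of 1e-05, 6e-05, 0.0045 and 0.0108). Scaled r was -0.831 for Mdm2 and -0.770 for Cdkn1a (raw permutation p of 0.00076 and 0.00287), against -0.246 and -0.417 as deposited. The part of mesenchyme content in the relations to the proliferation list was not tested.

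Of the 14 tested genes of the epithelial list, 6 had an unadjusted limma p below 0.05 between genotypes, where 5.34% of all tested genes did. With the epithelial list (14 of 14 tested genes above 0, median 0.30, summed level 1758 to 2532 RPKM in the controls and 2121 to 3116 RPKM in the nulls) Cdkn1c had r = -0.633 and Mdm2 r = 0.617, both with a permutation adjusted p of 0.0750 over the 24 added relations. Adjusted over all genes, 0 of the 8 members and 0.422% of genes passed (permutation adjusted p of 0.404 and 0.417 for Cdkn1c and Mdm2). After median-ratio scaling r was -0.956 for Cdkn1c, -0.898 for Cdkn2c, -0.847 for Cdkn2d and 0.749 for Mdm2, with permutation p of 1e-05, 0.00012, 0.00053 and 0.00532. These 4 members then passed after adjustment over all genes, where 21.8% of genes did.

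With the ameloblast list of 7 enamel genes (summed level 36034 to 142043 RPKM in the controls and 52825 to 140049 RPKM in the nulls) the 4 genes ran the other way, with r of -0.889 for Trp53, -0.807 for Cdkn2d, -0.738 for Cdkn2c and -0.636 for Cdkn1c (rho -0.909, -0.804, -0.776 and -0.615), and permutation adjusted p of 0.00096, 0.00696, 0.0223 and 0.0750 over the added relations. Adjusted over all genes, these 4 of the 8 members passed (0.00162, 0.00673, 0.0164 and 0.0467 by permutation), and so did 59% of all genes. Without controls 5 and 6 they were -0.839, -0.726, -0.641 and -0.635. Within libraries 5 to 7 they were -0.918, -0.825, -0.721 and -0.561, and within 8 to 10 -0.758, -0.703, -0.608 and -0.478. After median-ratio scaling they were -0.829, -0.654, -0.592 and -0.526 (raw permutation p of 0.00104, 0.0222, 0.0438 and 0.0801). Scaled r was 0.779 for Mdm2 and 0.763 for Ccng1 (raw permutation p of 0.0028 and 0.00402), against -0.332 and 0.232 as deposited. The part of enamel transcripts in these values was not tested.

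Between the members, 28 pairs were compared across libraries, and 6 passed at an adjusted p below 0.05, all of them within Cdkn1c, Cdkn2c, Cdkn2d and Trp53. The lowest of these r was 0.737, a size reached in either direction by 21.8% of all pairs of tested genes and by 6 of the 28 member pairs, so the count itself is no result about the members. Cdkn1c and Cdkn2c had r = 0.958 (rho 0.937, raw permutation p = 1e-05, adjusted p = 0.00028), Cdkn2c and Cdkn2d r = 0.919 (rho 0.895, permutation p = 0.00011, adjusted p = 0.00103) and Cdkn1c and Cdkn2d r = 0.899 (rho 0.860, permutation p = 0.0001, adjusted p = 0.00103). Without the 2 libraries farthest from the median, r was 0.941, 0.877 and 0.886. Within libraries 5 to 7 it was 0.955, 0.969 and 0.872, and within 8 to 10 it was 0.942, 0.810 and 0.876. These 3 pairs had r of 0.941, 0.872 and 0.877 after median-ratio scaling (permutation adjusted p of 0.00028, 0.0035 and 0.0035).

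The Trp53 pairs turned on the scaling. Trp53 had r = 0.843 with Cdkn2d, 0.749 with Cdkn2c and 0.737 with Cdkn1c, with permutation adjusted p of 0.00539, 0.0328 and 0.0328. After scaling, r was 0.519, 0.499 and 0.573 and none of the 3 passed (permutation adjusted p of 0.156, 0.172 and 0.111). As deposited, r was 0.819, 0.751 and 0.674 within libraries 5 to 7 and 0.786, 0.582 and 0.661 within 8 to 10. Cdkn1a and its fellow p53 target Mdm2 had r = 0.429 (permutation adjusted p = 0.450) as deposited and 0.773 after scaling (permutation adjusted p = 0.0117). Mdm2 after scaling had r of -0.855 with Trp53, -0.796 with Cdkn1c, -0.793 with Cdkn2d and -0.776 with Cdkn2c (permutation adjusted p of 0.0035, 0.0111, 0.0111 and 0.0117), against 0.179, -0.253, 0.0359 and -0.166 as deposited. Cdkn1a after scaling had r of -0.745 with Cdkn1c, -0.710 with Cdkn2c and -0.663 with Cdkn2d (permutation adjusted p of 0.0193, 0.0306 and 0.0488). After scaling, r of 0.737 in size was reached by 9 of the 28 member pairs and by 6.66% of all gene pairs. Mdm2 varied little as deposited (SD 0.07), and the part of the scale factors in its scaled r was not tested.

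**Figure D4:**
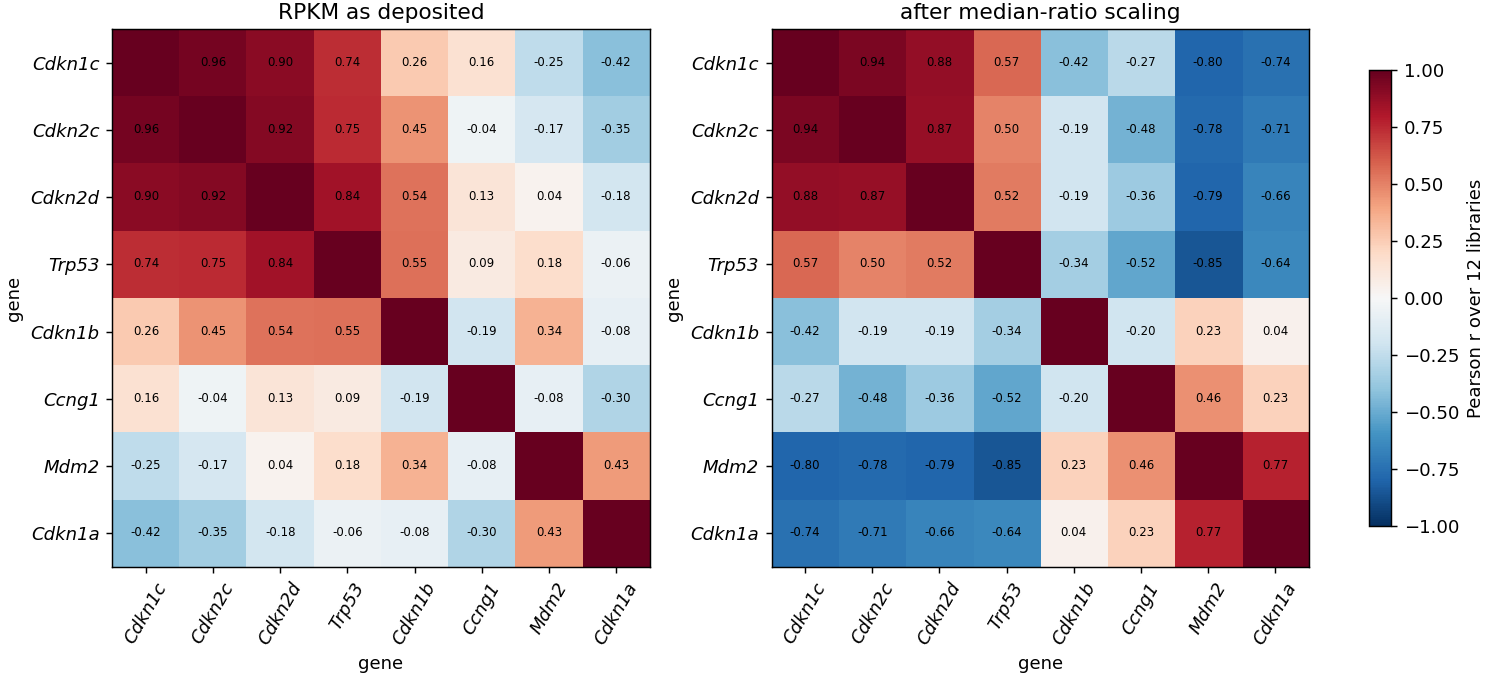
Pearson's r over 12 libraries between the 8 tested genes, with RPKM as deposited on the left and after median-ratio scaling on the right. Cdkn1c, Cdkn2c and Cdkn2d form a block of positive r in both, while the r of Mdm2 with them lies between -0.25 and 0.04 on the left and between -0.80 and -0.78 on the right.

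The mix of inhibitors was compared as shares of the summed RPKM of the 7 inhibitor genes, a set of 8 measures chosen after the values had been seen. Cdkn1a made up 59.96% ± 7.25 of the sum in the controls and 68.5% ± 10.1 in the nulls (exact 2-sided permutation p = 0.152). Cdkn1c made up 27.9% ± 6.54 and 19.1% ± 9.40 (exact permutation p = 0.0693). The share of Cdkn1c was lower on average in the nulls with ranges that overlapped, from 18.6% to 38.8% in the controls and from 10.4% to 36.7% in the nulls.

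The ratio of Cdkn2c to Cdkn2d was 0.707 ± 0.0951 in the controls and 0.572 ± 0.0669 in the nulls (exact permutation p = 0.0238, adjusted p = 0.190 over the 8 measures). The sum of the 3 Cip/Kip genes was 233 ± 27.9 and 228 ± 29.1 RPKM (exact permutation p = 0.760). The sum of the 4 INK4 genes was 13.8 ± 3.06 and 11.9 ± 3.43 RPKM (exact permutation p = 0.279). None of the 8 measures passed after adjustment in this comparison of 6 against 6.

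**Figure D5:**
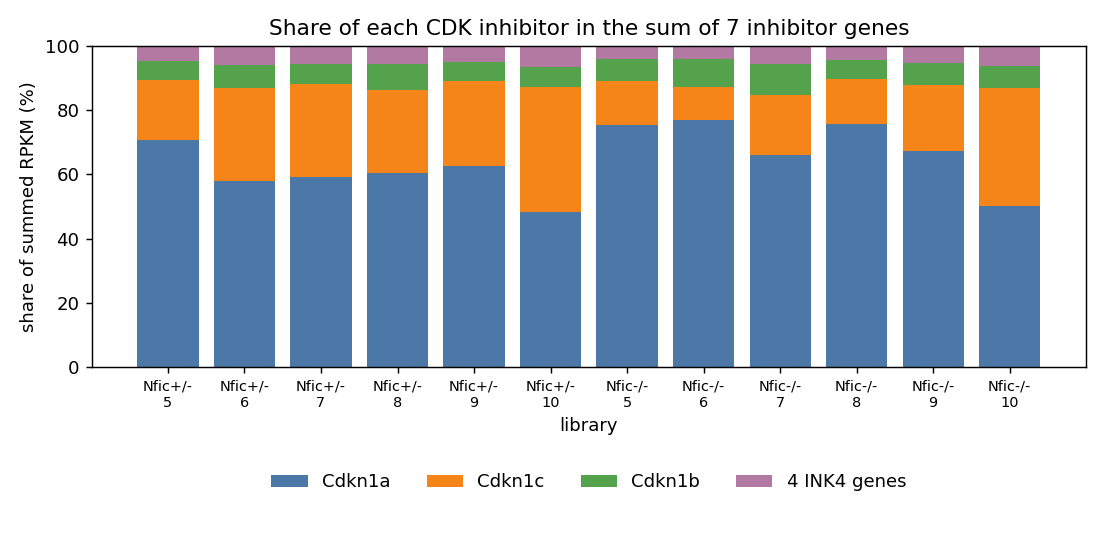
Share of each inhibitor group in the summed RPKM of the 7 CDK inhibitor genes, in percent, for each of the 12 libraries. The Cdkn1a share runs from 48.4% to 76.9% and the Cdkn1c share from 10.4% to 38.8%.

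The wider p53 pathway had 0 called genes as well. Of 30 listed p53 targets, 24 were tested, 13 above and 11 below 0 with a median difference of 0.01. An unadjusted limma p below 0.05 was found for 2 of the 24, where 5.34% of all tested genes had one, so the count is no result about the list. The 3 targets with the smallest p are described. Gadd45a, a stress-response gene that acts in growth arrest, had 11.3 ± 2.996 RPKM in the controls and 17.6 ± 4.74 RPKM in the nulls, a difference of 0.60 (SE 0.194, limma adjusted p = 0.934). Sfn, an epithelial 14-3-3 protein, had 43.2 ± 7.29 and 58.3 ± 16.6 RPKM, and Perp, a desmosomal p53 target, 306 ± 59.4 and 378 ± 65.0 RPKM. Sfn is also on the epithelial list described above, and the part of epithelial content in these values was not tested.

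Of the 13 tested regulators and relatives of p53, 9 were above 0 and 4 below, with a median of 0.006. Trp63, the p53 relative that marks basal epithelium, had 27.4 ± 4.14 RPKM in the controls and 32.9 ± 6.86 RPKM in the nulls. Twist1, which is on the mesenchyme list too, had 16.9 ± 5.58 and 11.6 ± 6.00 RPKM. Mdm4, the partner of Mdm2, had 4.84 ± 0.938 and 5.17 ± 1.15 RPKM, and 0 of the 13 were called.

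Among the kinases and cyclins that the inhibitors bind, 7 of 8 tested genes were below 0 and 1 above, with a median of -0.19 and 0 called. Cdk4, the kinase bound by INK4 proteins, had 49.0 ± 8.03 RPKM in the controls and 49.2 ± 7.41 RPKM in the nulls, and Cdk6 had a mean below 1 RPKM. Ccnd1, the D-type cyclin that activates it, had 31.0 ± 12.4 and 25.5 ± 7.84 RPKM. All 20 proliferation genes were below 0, with a median of -0.22, 0 called and 0 with an unadjusted limma p below 0.05. Of all tested genes, 51.1% were below 0. The 20 genes come from the same libraries and are not independent observations, and their mean was highest in controls 10 and 6. Mki67 was lower in the null of 4 of 6 library numbers (exact permutation p = 0.463), and Top2a likewise in 4 of 6 (exact permutation p = 0.294).

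Of the 11 tested genes of the Rb-E2F step, which lies downstream of CDK4 and CDK6, 5 were above and 6 below 0. Rb1 had 17.5 ± 1.41 RPKM in the controls and 19.3 ± 2.25 RPKM in the nulls. Of the 8 genes that act in the breakdown of p27, 2 were above and 6 below 0, with a median of -0.03. None of these genes was called.

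The tested genes with the profile most like each member over the 12 libraries were found by Pearson's r of log2(RPKM + 1), as a description. Cdkn1c was most like Gulp1 (0.988), S1pr3 (0.988) and Rspo4 (0.987), Cdkn2c like Gng10 (0.982), Dlx4 (0.981) and Chst10 (0.980), and Cdkn2d like Ift74 (0.978), Crot (0.976) and Hmox2 (0.972). Trp53 was most like Gnb1 (0.986), Adam19 (0.984) and Pisd (0.984). The closest genes to Cdkn1a, Ccng1 and Mdm2 were less close, with Lbh at 0.917, Atp2c1 at 0.914 and Pdzd2 at 0.869.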

How the data were processed

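The 12 RNA-seq libraries of molar germ tissue, 6 Nfic+/- and 6 Nfic-/- by their labels, were analysed. Reads had been aligned with TopHat2 to mm10, per the submitters' processing notes. The counter, annotation and strandedness were not given in the sources used here. As deposited by the authors, the table is described as RPKM, but its values run from -11.1 to 16.7 and were read as log2 of RPKM, so linear RPKM assumed earlier was replaced by back-transformation. Base 2 gave 0.773 to 0.835 of the depth as gene reads, base e an impossible 8.23 to 28.4 times. Genes without reads carried a floor of 0.9 reads, and the depth was read from genes at that floor in all libraries. The floor was chosen on 7080 low values of 2677 other genes, of which 100% came out as whole reads within 0.02 reads.

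The 12094 genes averaging at least 1 RPKM were compared with limma 3.58.1 in R 4.3.3 on log2(RPKM + 1), genotype as the only term, with an intensity trend and Benjamini-Hochberg adjustment at 0.05. The fit was tested on simulated data with independent noise for each gene and library, so likeness between genes or between libraries was not covered. Single values used exact permutations (924 assignments), and correlations 100000 resamples. Identifiers were matched to GENCODE M21 (24987 genes). Named genes were the members, Nfic, the 3 smallest p of each pathway list with fixed additions, and the 3 most alike genes, of which some are not reported here. The members and lists were chosen with earlier results of these data known. Other settings were a pseudocount of 0.1, other filters, median-ratio scaling, array weights, robust variance, a block by replicate number and each library left out; the sets of libraries, libraries 8 and 9 left out, and the mesenchyme, epithelium and ameloblast relations, the shares and the relations over all genes and gene pairs were added once values were known. Python 3.11.15, numpy 2.4.6, pandas 2.3.3, scipy 1.17.1 and matplotlib 3.10.9 were used.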

Additional observations from a re-analysis of the deposited data

How the results depend on the processing

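No setting called a member. The count of genes called over the table was 0 in 22 alternatives and 17 with array weights (9 higher and 8 lower, none of them a member, Cdkn1c at adjusted p = 0.0610), and the cause was not tested. Genes with an unadjusted p below 0.05 numbered 271 to 2263 by setting against 646. Members were among them in some settings. The limma p of Cdkn1c was 0.0131 with the replicate block, 0.0276 with median-ratio scaling and 0.00119 with array weights. For Cdkn2c it was 0.0440, 0.0499 and 0.00821, where 981, 1127 and 2263 of all genes passed. Array weights gave 0.0304 for Cdkn1a. Without null 10 the limma p was 0.00262 for Cdkn1c and 0.0218 for Cdkn2c, where 1236 genes passed. Equal replicate numbers were not taken as pairs, because no label ties a number to a litter. Between the control and the null of a number, deviations correlated at 0.492, 0.00502, 0.310, 0.667, 0.688 and 0.802 for numbers 5 to 10. For nulls 5, 7, 8, 9 and 10 and controls 8, 9 and 10, the closest library of the other genotype carried the same number. For null 6 and controls 5, 6 and 7 it did not. The tests of 6 against 6 took no account of this likeness, and its source was not tested. With the number as a replicate block, 0 genes were called, 981 had an unadjusted p below 0.05, and Cdkn1c (-0.66, lower in 6 of 6 numbers) had an adjusted p of 0.482; Nfic gave an exact sign-flip permutation p of 0.0312. In the same block by number, the Cdkn1a share and the ratio of Cdkn1a to Cdkn1c were higher and the Cdkn1c share and the ratio of Cdkn2c to Cdkn2d lower in the null of 6 of 6 numbers, each with an exact sign-flip permutation p of 0.0312, the smallest it can give, and an adjusted p of 0.0625 over the 8 measures. Leaving out each library moved the Nfic difference between -0.63 and -0.41, and the Trp53 difference between -0.135 and 0.0281 and that of Ccng1 between -0.0338 and 0.104. The other differences, none of them called, ran from 0.0937 to 0.198 for Cdkn1a, 0.0514 to 0.194 for Cdkn1b, -0.922 to -0.480 for Cdkn1c, -0.0447 to 0.192 for Cdkn2b, -0.484 to -0.245 for Cdkn2c, -0.218 to -0.0355 for Cdkn2d and 0.0110 to 0.0594 for Mdm2. Within libraries 8 to 10 the differences were 0.0781 for Cdkn2d, -0.0144 for Mdm2 and -0.00102 for Ccng1.

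Relations to the proliferation list changed sign under some settings for genes without a call in RPKM as deposited. Median-ratio scaling gave r = -0.297 for Cdkn1b, -0.833 for Mdm2 and -0.521 for Ccng1, and of these Mdm2 then passed (permutation adjusted p = 0.0014 over the 8 relations). Without the 2 farthest libraries Mdm2 had -0.0706, within libraries 5 to 7 Cdkn1a had 0.247 and Ccng1 -0.605, within 8 to 10 Mdm2 had -0.382, and with libraries 8 and 9 left out Ccng1 had -0.181. With each library left out, r ran from -0.112 to 0.280 for Mdm2, from -0.331 to 0.0548 for Cdkn1a and from -0.0630 to 0.200 for Ccng1. Depth limited Cdkn2a, with at most 14 reads per library.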
